A study of Mus musculus with 10 samples.

Results

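The genes described here are the 3 Runx transcription factors Runx1, Runx2 and Runx3, their shared partner subunit Cbfb, osterix (Sp7), and the bHLH factors Twist1 and Twist2. They are the 7 rows with these names among the 29583 genes of the table, and each was measured in all 10 libraries. The cells were MC3T3-E1, a pre-osteoblast line from mouse skull, of which a single subclone was used. The libraries share the labelled strain C57BL/6 and the labelled age newborn, and the third passage of the line. The standard medium held the plant sterol β-ecdysterone at 0, 100, 150 or 200 μM, and RNA was taken on day 5 or day 10. Each dose and day had 1 library, which gave 6 libraries of treated cells and 2 at 0 μM. A further 2 libraries, A-5 and B-4, were labelled untreated, with no time. The methods give n = 3 for RNA extraction, and nothing says whether the libraries came from separate cultures. With the 3 doses standing in as replicates, the p-values measure only the spread between these libraries. The labels also name the source as bone marrow stem cells, which goes against the name of the line.

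Runx proteins bind DNA through the Runt domain, and CBFβ, the product of Cbfb, joins them to strengthen that binding. Runx2 is the master regulator of the osteoblast lineage, and mice without it form no bone. Osterix is a zinc finger factor of the Sp family that acts downstream of Runx2 in the step from pre-osteoblast to osteoblast. Runx1 is best known from blood stem cells and is also made in cartilage and early bone cells, and Runx3 acts in T cells, neurons and chondrocytes. Twist1 and Twist2 are mesenchymal factors that hold back Runx2 early in skull development.

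The Runx genes lie on different chromosomes and carry the same short sequence at their distal promoters, which is why these 3 stretches are shown. Runx2 (ENSMUSG00000039153) lies at chr17:44495987-44814797 on the minus strand (GENCODE M21, GRCm38). Runx1 (ENSMUSG00000022952) lies at chr16:92601466-92826149 on the minus strand, and Runx3 (ENSMUSG00000070691) at chr4:135120652-135177990 on the plus strand. Each sequence below is from RefSeq (GRCm38.p6) and holds 250 bases before the start of transcription and 50 bases after it, read 5′ to 3′ along the gene. Capitals mark the Runx motif TGTGGT or its reverse complement.
Runx2, chr17:44814578-44814877, minus strand: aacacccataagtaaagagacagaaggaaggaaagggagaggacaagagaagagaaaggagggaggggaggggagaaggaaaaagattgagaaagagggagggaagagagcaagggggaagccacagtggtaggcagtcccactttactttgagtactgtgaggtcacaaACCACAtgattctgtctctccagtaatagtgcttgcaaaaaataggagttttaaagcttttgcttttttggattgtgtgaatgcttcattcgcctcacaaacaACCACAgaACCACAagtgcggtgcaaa
Runx1 distal, chr16:92826025-92826324, minus strand: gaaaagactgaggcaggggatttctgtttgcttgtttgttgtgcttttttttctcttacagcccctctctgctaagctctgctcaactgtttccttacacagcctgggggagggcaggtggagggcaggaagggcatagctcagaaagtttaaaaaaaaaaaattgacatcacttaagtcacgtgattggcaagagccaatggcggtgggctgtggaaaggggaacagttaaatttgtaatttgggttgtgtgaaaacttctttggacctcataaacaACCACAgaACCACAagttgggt
Runx3 distal, chr4:135120395-135120694, plus strand: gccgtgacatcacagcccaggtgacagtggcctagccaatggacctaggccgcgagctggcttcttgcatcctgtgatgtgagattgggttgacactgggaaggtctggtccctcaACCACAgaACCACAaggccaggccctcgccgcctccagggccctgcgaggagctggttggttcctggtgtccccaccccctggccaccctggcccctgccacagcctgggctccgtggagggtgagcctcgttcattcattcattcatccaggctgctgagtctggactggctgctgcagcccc

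The Runx2 window held the motif 3 times, beginning at -80, 23 and 31 bases from the first transcribed base (position 0). The distal Runx1 window held it at 28 and 36 bases. The distal Runx3 window held it at -134 and -126 bases. The motif was present in 16.8% of the 32851 mouse promoter windows of this length. All 3 windows held the pair ACCACAGAACCACA, which is 2 copies of the motif with 2 bases between. The letters of the pair were read from the Runx2 window, so its match there was given in advance. On either strand the pair was found in 4 of the 32851 windows (0.0122%), and these 3 were among them. With any 2 bases between the copies it was found in 7 windows (0.0213%). The proximal windows of Runx1 and Runx3 and the windows of Cbfb, Twist1 and Twist2 held no match, and Sp7 had no entry. A match is a run of letters and was not tested as a binding site.

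Treated cells had more Runx2 and Sp7 RNA and less Runx1 RNA than cells at 0 μM on both days. Levels are given as FPKM, fragments per kilobase of transcript scaled to sequencing depth, so that genes of different length can be set side by side. Fold changes come from the raw counts by edgeR's quasi-likelihood test, with day in the model. A call needed an adjusted p under 0.05 and a change of more than 1 on the log2 scale in either direction. All 7 genes passed the filter on low counts, with 87 to 13580 counts per library. Of these genes 2 were called higher, where 13.4% of all genes tested were called higher, and 1 was called lower, against 5.98% of all genes. By adjusted p alone 6 of the 7 genes passed, against 43.3% of all genes. The FPKM of the 6 treated libraries lay above both 0 μM libraries for 2 genes and below both for 3 genes, as they did for 23.8% and 27.2% of all genes. The ranges overlapped for Runx3 and Twist1. In bulk RNA, a change in the number of cells of a type and a change in RNA per cell cannot be told apart.

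**Figure D1:**
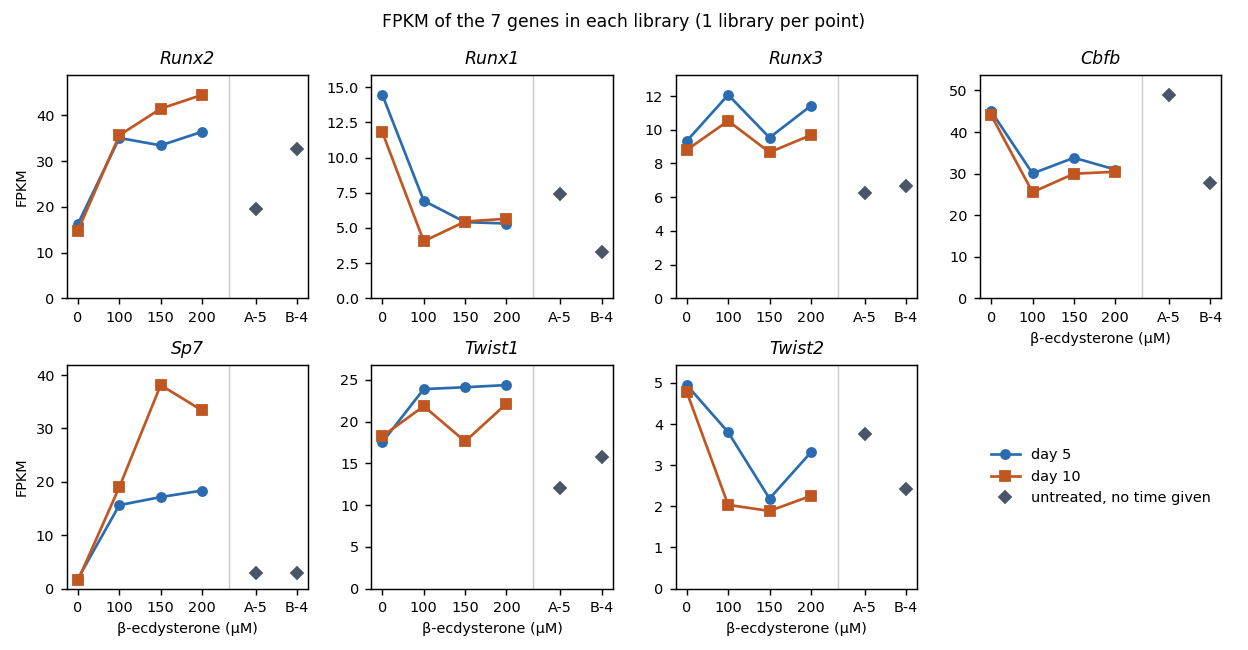
FPKM of each gene (vertical axis, from 0) against the dose of β-ecdysterone in μM (horizontal axis), with blue circles for day 5, orange squares for day 10 and grey diamonds for the untreated libraries A-5 and B-4. Each point is 1 library, and the lines only join libraries of the same day. Runx2 and Sp7 stood higher at every dose than at 0 μM, and Runx1, Cbfb and Twist2 stood lower.

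Runx2 stood at 16.3 FPKM at 0 μM on day 5 and at 14.8 FPKM at 0 μM on day 10. On day 5 it stood at 35.1, 33.4 and 36.4 FPKM at 100, 150 and 200 μM. On day 10 it stood at 35.6, 41.4 and 44.5 FPKM at the same doses. Set against 0 μM of its own day, the treated libraries ran from 2.06 times (150 μM, day 5) to 3.0 times (200 μM, day 10). The treated mean was 37.7 ± 4.27 FPKM (SD, n = 6). The log2 fold change was 1.27 (SE 0.12, 95% interval 1 to 1.54, adjusted p = 4.11e-05), so the lower bound lay on the fold limit. An annotated gene on the opposite strand, Supt3, overlaps Runx2. Supt3 stood at 4.37 and 6.38 FPKM at 0 μM and at 3.08 to 4.45 FPKM in treated cells (log2 fold change -0.47), so it did not move in the direction of Runx2. Whether reads were assigned by strand is not given.

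Cbfb (ENSMUSG00000031885) lies at chr8:105170674-105217989 on the plus strand, and its protein has no DNA contact of its own. It was the most abundant of the 7 genes at 0 μM, with 45.0 FPKM on day 5 and 44.0 FPKM on day 10. In treated cells it stood at 30.0, 33.8 and 31.0 FPKM on day 5 and at 25.5, 30.0 and 30.4 FPKM on day 10, at 100, 150 and 200 μM. All 6 treated libraries lay below both 0 μM libraries. The log2 fold change was -0.52 (SE 0.08, adjusted p = 0.00063), which passed the test on p but not the fold limit. At 0 μM there was less Runx2 than Cbfb on both days, and in treated cells there was more, apart from 150 μM on day 5 (33.4 against 33.8 FPKM).

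Runx1 stood at 14.5 and 11.8 FPKM at 0 μM on days 5 and 10, near the level of Runx2 there. In treated cells it stood at 6.94, 5.42 and 5.32 FPKM on day 5, and at 4.06, 5.46 and 5.66 FPKM on day 10. The ranges did not overlap. Runx1 fell by 1.18 on the log2 scale (SE 0.11, 95% interval -1.42 to -0.93, adjusted p = 3.88e-05). Runx1 is a blood factor, so markers of blood cells were examined beside it. The summed level of 10 such markers was 12.1 and 20.9 FPKM at 0 μM and 22.6 to 42.6 FPKM in treated cells, nearly all of it the lysozyme gene Lyz2 (10.7 and 19.7 FPKM at 0 μM and 21.3 to 41.7 FPKM in treated cells). The other 9 markers together came to 1.39 and 1.25 FPKM at 0 μM and 0.899 to 1.3 FPKM in treated cells. Among them the macrophage marker Cd68 stood at 1.14 and 1.12 FPKM at 0 μM and at 0.681 to 0.946 FPKM in treated cells. Its log2 fold change was -0.46 (adjusted p = 0.136). The marker Spi1 went the other way, from 0 counts in both 0 μM libraries to between 2 and 17 counts in treated cells. Of the 10 blood markers 4 were tested. Lyz2 and Spi1 were called higher (50%, against 13.4% of all genes) and 0 were called lower. Spi1 passed the filter on low counts through the treated libraries and could hardly be called lower, and the share of 50% includes it. The pan-leukocyte marker Ptprc stayed at or under 0.037 FPKM in every library, and 8 of the 10 markers stayed under 1 FPKM. Their part in the change of Runx1 was not tested.

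Runx3 stood at 9.34 and 8.8 FPKM at 0 μM on days 5 and 10. In treated cells it stood at 12.1, 9.53 and 11.4 FPKM on day 5 and at 10.5, 8.66 and 9.68 FPKM on day 10. On each day the library at 150 μM lay nearest to 0 μM. The log2 fold change was 0.29 (95% interval 0.03 to 0.55, adjusted p = 0.067) and did not pass.

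The balance within the Runx family differed between treated cells and 0 μM. At 0 μM Runx2 made up 40.6% and 41.8% of the summed Runx FPKM, Runx1 36.1% and 33.3%, and Runx3 23.3% and 24.9%. In treated cells Runx2 made up 64.8 to 74.6%, Runx1 8.08 to 12.8%, and Runx3 15.6 to 22.3%. The ratio of Runx2 to Runx1 was 1.12 and 1.26 at 0 μM and 5.05 to 8.78 in treated cells (mean 7.05 ± 1.32, SD, n = 6). The summed Runx FPKM was 35.4 and 40.1 at 0 μM and 48.4 to 59.8 in treated cells. With Cbfb lower and the sum higher, there was 1.12 and 1.24 times as much Cbfb as Runx RNA at 0 μM and 0.508 to 0.699 times as much in treated cells. None of these ranges overlapped, and each ratio gave p = 0.0714 in a two-sided exact permutation test. This is the smallest value that 6 against 2 libraries allow, so p under 0.05 could not be reached. In every treated library Runx2 and the Runx sum lay above both 0 μM libraries, and Runx1 and Cbfb below. The ratios of Runx2 to Runx1 and of Cbfb to Runx were thus bound to separate, and their p adds nothing to the single genes.

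**Figure D2:**
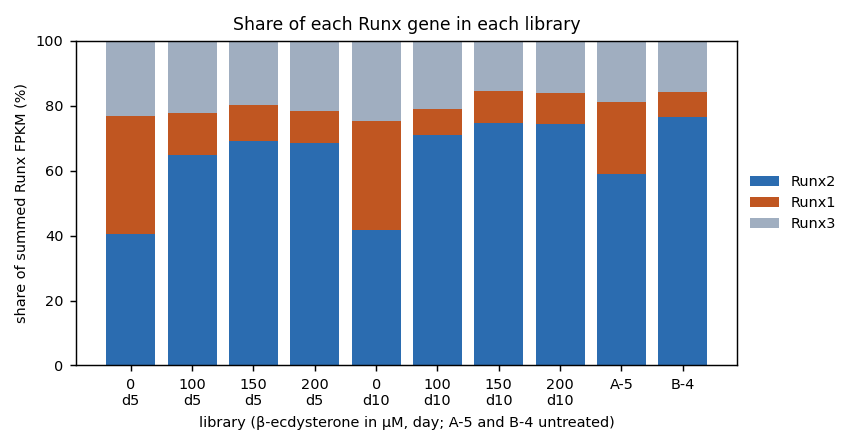
Stacked bars of the share of Runx2 (blue), Runx1 (orange) and Runx3 (grey) in the summed FPKM of the 3 Runx genes (vertical axis, percent), 1 bar per library. Runx2 holds 40.6% and 41.8% at 0 μM and at least 64.8% in treated cells, while the untreated libraries A-5 and B-4 stand at 58.9% and 76.6%.

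Sp7 (ENSMUSG00000060284), which lies at chr15:102356606-102367182 on the minus strand, showed the widest change of the 7 genes. It stood at 1.86 and 1.53 FPKM at 0 μM on days 5 and 10, the lowest level of any of these genes there. On day 5 it stood at 15.6, 17.1 and 18.4 FPKM at 100, 150 and 200 μM, close together at 17.0 ± 1.37 FPKM (SD, n = 3). On day 10 it stood at 19.0, 38.1 and 33.4 FPKM, so that 150 and 200 μM lay apart from 100 μM. All 6 treated libraries lay at least 8.39 times above 0 μM on their own day, and the highest, 150 μM on day 10, lay 24.9 times above. The log2 fold change was 3.74 (SE 0.34, 95% interval 2.99 to 4.5, adjusted p = 3.08e-05). The ratio of Sp7 to Runx2 was also higher, at 0.103 and 0.115 at 0 μM and 0.446 to 0.92 in treated cells (exact permutation p = 0.0714, the smallest possible).

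**Figure D3:**
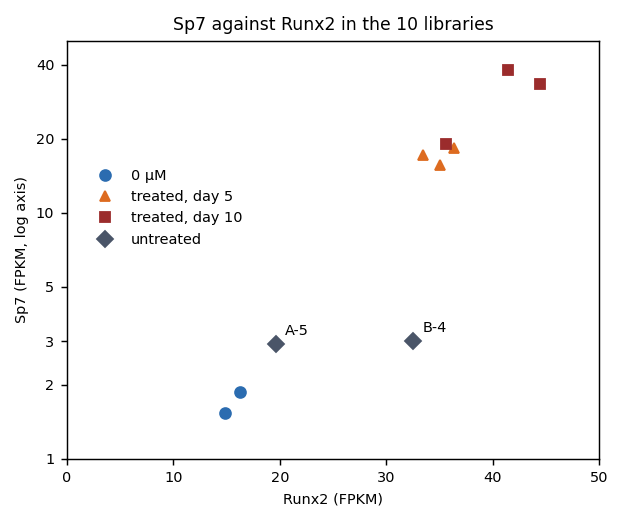
Sp7 FPKM (vertical axis, log scale) against Runx2 FPKM (horizontal axis), 1 point per library, with blue circles for 0 μM, orange triangles for treated cells on day 5, dark red squares for treated cells on day 10 and grey diamonds for the untreated libraries. The untreated library B-4 has 32.6 FPKM of Runx2, close to treated cells, with 2.99 FPKM of Sp7.

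The Twist genes had log2 fold changes of opposite sign, both within the fold limit. Twist1 (ENSMUSG00000035799), at chr12:33957671-33959829 on the plus strand, stood at 17.5 and 18.3 FPKM at 0 μM. In treated cells it stood at 23.9, 24.1 and 24.4 FPKM on day 5 and at 21.9, 17.6 and 22.2 FPKM on day 10. Its log2 fold change was 0.37 (SE 0.11, adjusted p = 0.0237), and it no longer passed on p when either 0 μM library was left out (adjusted p = 0.228 without day 5 and 0.0636 without day 10). Twist2 (ENSMUSG00000007805), at chr1:91801461-91848028 on the plus strand, stood at 4.95 and 4.78 FPKM at 0 μM. In treated cells it stood at 3.8, 2.19 and 3.31 FPKM on day 5 and at 2.03, 1.89 and 2.25 FPKM on day 10, all below 0 μM. Its log2 fold change was -0.88 (SE 0.22, adjusted p = 0.00961), and leaving out a 0 μM library moved the call. Without that of day 5 it stood at -1.10 and was called (adjusted p = 0.0233), and without that of day 10 it did not pass on p (adjusted p = 0.146). The ratio of Twist1 to Twist2 was 3.55 and 3.82 at 0 μM and at least 6.29 in treated cells, and that of Runx2 to Twist1 was 0.812 and 0.927 at 0 μM and 1.39 to 2.35 in treated cells (exact permutation p = 0.0714 for each). How reads matching both Twist genes were counted is not given.

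At 0 μM the order of the mean levels was Cbfb, Twist1, Runx2, Runx1, Runx3, Twist2 and Sp7, at 44.5, 17.9, 15.5, 13.1, 9.07, 4.86 and 1.7 FPKM. The ranges of neighbours in this order did not overlap. In treated cells the means ran Runx2, Cbfb, Sp7, Twist1, Runx3, Runx1 and Twist2, at 37.7, 30.1, 23.6, 22.3, 10.3, 5.47 and 2.58 FPKM. There the range of Sp7, 15.6 to 38.1 FPKM, overlapped those of Runx2, Cbfb and Twist1, and Runx2 overlapped Cbfb. The ranges of Twist1, Runx3, Runx1 and Twist2 lay apart from each other.

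The next question was whether the genes differed between day 5 and day 10 of treatment. None of the 7 genes was called between the days, against 1.05% of all genes. By adjusted p alone Sp7 passed, against 2.8% of all genes. Its log2 difference, day 10 over day 5, was 0.91 (SE 0.20, 95% interval 0.46 to 1.35, adjusted p = 0.0475), with day 10 at 30.2 ± 9.95 FPKM and day 5 at 17.0 ± 1.37 FPKM (SD, n = 3 each). The Sp7 value moved with single libraries. With the library of 100 μM on day 10 left out it was 1.13 and was called (adjusted p = 0.00267), and without any 1 of the other 5 treated libraries the adjusted p lay between 0.0836 and 0.179. The 2 day 10 libraries with most Sp7 RNA held 53666325 (200 μM) and 58218009 counts (150 μM), while 100 μM held 27108562. At 150 μM, where the libraries held 57220036 and 58218009 counts, Sp7 stood at 17.1 FPKM on day 5 and 38.1 FPKM on day 10, and the part of depth in the result was not tested. Runx2 differed by 0.28 (95% interval 0.06 to 0.51, adjusted p = 0.171), and the other 5 genes had intervals that included 0. By unadjusted p, 2 of the 7 genes, Sp7 and Runx2, were under 0.05, against 2930 of the 16020 genes tested. Scaling by library totals in place of TMM moved the median of all genes in this comparison by -0.127, and Sp7 then stood at 0.78 (adjusted p = 0.0532).

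**Figure D4:**
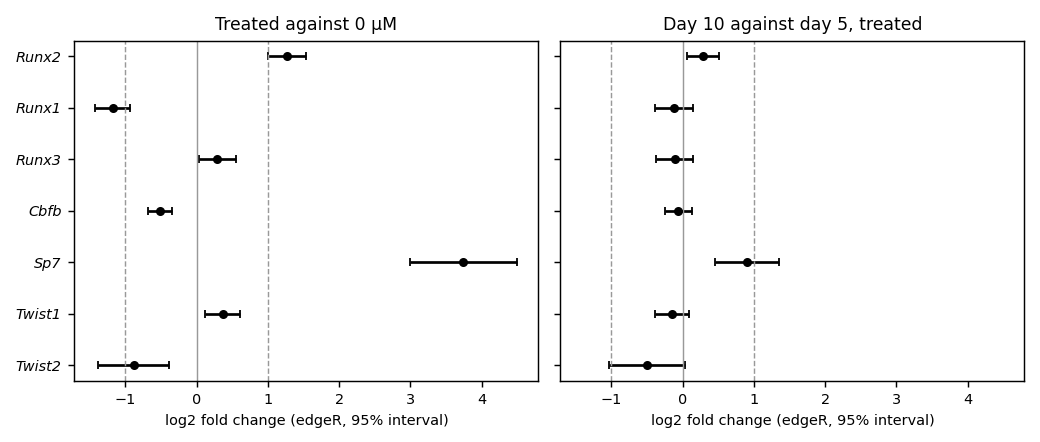
Log2 fold change (horizontal axis) of the 7 genes with the 95% interval from edgeR as bars, for treated against 0 μM (left) and for day 10 against day 5 in treated cells (right), with dashed lines at the fold limit. Runx2 at 1.27 and Sp7 at 3.74 lie above the upper line and Runx1 at -1.18 below the lower one on the left, and no gene passes a line on the right.

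The change with treatment itself was then compared between the days. None of the 7 genes was called, against 0.0112% of all genes. The change of Sp7 was larger on day 10 by 1.17 on the log2 scale (95% interval 0.16 to 2.18, unadjusted p = 0.0272, adjusted p = 0.555), and that of Runx2 by 0.38 (95% interval -0.08 to 0.83, adjusted p = 0.671). Sp7 was the only one of the 7 with an unadjusted p under 0.05, against 1464 of the 17799 genes tested. Each day had a single 0 μM library.

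Dose was examined within the 6 treated libraries. No gene of the 7 was called for a trend with dose, against 0.006% of all genes. The slope of Sp7 was 0.45 per 100 μM on the log2 scale (95% interval -0.06 to 0.95, adjusted p = 0.997), and that of Runx2 was 0.17 (95% interval -0.11 to 0.44, adjusted p = 0.997). Both slopes leaned on the 100 μM libraries. With 100 μM of day 10 left out they were 0.08 for Sp7 and 0.09 for Runx2, and with 100 μM of day 5 left out they were 0.60 and 0.26. When 150 μM was set against 100 and 200 μM, none of the 7 genes was called, against 0.006% of all genes. Runx3 was lower at 150 μM than at both other doses on each day, by 0.26 on the log2 scale (log2 difference -0.26, 95% interval -0.46 to -0.05, unadjusted p = 0.0196, adjusted p = 0.358), and Twist2 likewise (-0.46, 95% interval -0.93 to 0.01, adjusted p = 0.444). With 150 μM of day 5 left out the Twist2 difference was -0.19, and with 150 μM of day 10 left out it was -0.74. By unadjusted p, Runx3 was the only gene of the 7 under 0.05 in this comparison, against 1912 of the 16664 genes tested. None of the 7 was under 0.05 in the dose trend, against 391 of 16664. DESeq2 likewise called 0 of the 7 genes between days, for the difference between days, for dose and for 150 μM.

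The untreated libraries did not match 0 μM for these genes. Library A-5 lay nearer to 0 μM over all genes (root mean square difference of log2 CPM, counts scaled to library size, 0.364 to 0.406 to the 0 μM libraries and 0.588 to 0.681 to treated ones), and B-4 lay nearer to treated cells (0.708 to 0.73 and 0.553 to 0.589). Runx2 stood at 19.6 FPKM in A-5 and 32.6 FPKM in B-4, above both 0 μM libraries and below all treated ones. Runx1 stood at 7.4 FPKM in A-5, between the groups, and at 3.3 FPKM in B-4, below all 8 dosed libraries. Cbfb stood at 48.9 FPKM in A-5 and at 27.7 FPKM in B-4, the first above 0 μM and the second within the treated range. Sp7 did not follow Runx2, with 2.92 FPKM in A-5 and 2.99 FPKM in B-4, so that B-4 had 0.863 of the treated mean of Runx2 and 0.127 of that of Sp7. Runx3 (6.28 and 6.65 FPKM) and Twist1 (12.0 and 15.7 FPKM) lay below all 8 dosed libraries in both. Twist2 stood at 3.75 and 2.43 FPKM, within the treated range. When treated cells were compared with the untreated libraries instead, Sp7 alone of the 7 genes was called, Runx2 stood at 0.53 (adjusted p = 0.103) and Runx1 at 0.02 (adjusted p = 0.964). Runx3 then stood at 0.67 (adjusted p = 0.0106), within the fold limit.

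The cells carried osteoblast markers. The collagen gene Col1a1 stood at 938 to 1660 FPKM in treated cells and at 1280 and 1590 FPKM at 0 μM. The summed level of 9 osteoblast markers was 5060 and 6040 FPKM at 0 μM and 9040 to 18500 FPKM in treated cells, led in treated cells by periostin (Postn), which alone stood at 4750 to 10200 FPKM there. Without Postn the other 8 markers summed to 4880 and 5760 FPKM at 0 μM and to 4290 to 8240 FPKM in treated cells, so the ranges overlapped, and 150 μM on day 5 lay below both 0 μM libraries. Within the list the osteopontin gene Spp1 was lower in treated cells, at 500 to 947 FPKM against 1080 and 1090 FPKM at 0 μM (log2 fold change -0.56, adjusted p = 0.0325), within the fold limit. Of the defining markers, Alpl, the alkaline phosphatase of bone, had 0 and 2 counts at 0 μM. Ibsp (0.292 and 0.371 FPKM) and Bglap (0.97 and 0.4 FPKM) were also low there. Sums of the marker lists for chondrocytes, adipocytes, muscle and endothelium were low beside the osteoblast sum. Over the dosed libraries they were 18.8 to 32.8 FPKM for chondrocytes and 2.15 to 4.85 FPKM for adipocytes. For both, the ranges of the sums at 0 μM and in treated cells overlapped. Within the chondrocyte list, Sox9 stood at 8.06 and 9.05 FPKM at 0 μM and at 12.8 to 18.4 FPKM in treated cells. Its log2 fold change was 0.96 (adjusted p = 0.00118), within the fold limit. Of 6 chondrocyte genes tested, Comp and Cnmd were called higher (33.3%, against 13.4% of all genes) and 0 lower. Of 5 adipocyte genes tested, Lep was called higher (20%) and 0 lower. At 0 μM Cnmd had 0 counts in both libraries and Lep 2 in each. Muscle markers summed to 0.626 and 0.778 FPKM at 0 μM and 1.49 to 2.74 FPKM in treated cells. Endothelial markers summed to 0.145 and 0.186 FPKM at 0 μM and 0.454 to 0.616 FPKM in treated cells. The bone marrow stromal list summed to 177 and 207 FPKM at 0 μM and 114 to 143 FPKM in treated cells. Most of it was Cxcl12, at 163 and 192 FPKM at 0 μM and 87.7 to 117 FPKM in treated cells. Of the 6 genes, Kitl and Lepr were called higher (log2 fold changes 1.82 and 1.43) and 0 lower. That is 33.3% higher, against 13.4% of all genes. The defining marker Lepr stayed at or under 0.612 FPKM. No marker was at 0 counts in every library. The part of cell type makeup in the results was not tested.

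Genes that act with the 7 factors were called in both directions. The lists of such genes were chosen with earlier results of these data known. Lists of partners, regulators and targets were tested in the same fit of treated against 0 μM, and their medians are set beside the median of all genes, 0.05 on the log2 scale, and their shares called beside those of all genes, 13.4% higher and 5.98% lower. Of 22 Runx cofactors tested, 3 were called higher (13.6%), 1 was called lower (4.55%) and 18 were not called, with a median of -0.15. Both shares were near those of all genes. Tle1, a Groucho corepressor, rose by 1.32 on the log2 scale, and the zinc finger corepressors Zfp521 and Zfp423 rose by 1.87 and 1.25. In B-4 Tle1 stood at 21.8 FPKM, above its treated range of 13.4 to 19.2 FPKM. Zfp521 and Zfp423 stood at 5.06 and 5.99 FPKM in B-4, below their treated ranges. Runx1t1, a corepressor known as a fusion partner of Runx1 in leukaemia, fell by 1.08. Of 11 genes that act on Runx2 protein turnover, such as ubiquitin ligases, none was called (median -0.21), and the nearest to the limit was the ligase Smurf1, chosen after its value was seen, at -0.93 (SE 0.08, adjusted p = 2.7e-05).

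Of 30 positive regulators of osteoblast factors, 5 were called higher (16.7%, against 13.4% of all genes) and 6 lower (20%, against 5.98%), with a median of -0.20. The genes that rose furthest were Zbtb16, a zinc finger factor known to act upstream of Runx2 (log2 fold change 5.07, from 5 and 14 counts at 0 μM to at least 162 counts in treated cells), the Wnt effectors Tcf7 and Lef1 (1.93 and 1.61), and the homeobox gene Msx1 (1.79). The 4 genes that fell furthest encode subunits of AP-1, which binds DNA beside Runx2 in several bone genes. Fosl1 fell by 3.62 on the log2 scale, from 63.5 and 59.2 FPKM at 0 μM to between 2.83 and 6.83 FPKM. Junb fell by 2.64, Jun by 2.16 and Fos by 1.86. The other 3 AP-1 genes of the list were not called, with Jund at -0.75, Fosl2 at -0.63 and Fosb at 0.12. In B-4 the 4 called genes also stood low (Fosl1 at 3.98 FPKM, Junb at 14.4 FPKM, Jun at 15.6 FPKM and Fos at 1.27 FPKM), while in A-5 Fosl1 stood at 39.3 FPKM.

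Of 15 negative regulators of osteoblast factors, 3 were called higher (20%, against 13.4% of all genes) and 1 lower (6.67%, against 5.98%), with a median of 0.53. Besides Zfp521 and Zfp423, which are also on the cofactor list, the Snail factor Snai1 rose by 1.01. Hivep3, which promotes Runx2 degradation, fell by 1.72. Of 10 bHLH partners and Id proteins that pair with or oppose Twist, Bhlhe41 rose by 1.38, Scx, the tendon factor scleraxis, and Bhlhe40 each fell by 1.24, and 7 were not called (median -0.09). That is 10.0% higher and 20% lower, against 13.4% and 5.98% of all genes. In B-4 Bhlhe41 stood at 19.6 FPKM, above its treated range of 7.59 to 14.6 FPKM. Scx stood at 0.568 FPKM there, below its treated range, and Bhlhe40 at 14.3 FPKM, between treated cells and 0 μM.

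Of 28 known target genes of Runx2 and osterix, 13 were called higher (46.4%, against 13.4% of all genes) and 2 lower (7.14%, against 5.98%), and 13 were not called (median 0.82). Bone sialoprotein (Ibsp) went from 34 and 27 counts at 0 μM to between 2207 and 43074 counts in treated cells (log2 fold change 8.61, SE 0.88). Mmp13, a collagenase that both factors drive, rose by 4.69 and the receptor gene Fgfr2 by 3.78. In B-4 Mmp13 stood at 197 FPKM, within its treated range of 89.9 to 510 FPKM. Ibsp and Fgfr2 stood at 3.81 and 93.2 FPKM in B-4, below their treated ranges. Alpl went from 0 and 2 counts to between 486 and 3460 counts, too few at 0 μM for a fold. Dmp1, an osteocyte matrix gene, fell by 2.10, and Col5a3 fell by 1.33. Of these genes, 3 of the 13 called higher had at most 3 counts in both 0 μM libraries, which makes their fitted fold changes depend on the method. Genes with so few counts at 0 μM passed the filter on low counts through the treated libraries and could hardly be called lower. The count of 13 and the share of 46.4% include them. Col1a1 and Col1a2, textbook targets of both factors, stood at 0.01 and 0.09 (adjusted p = 0.977 and 0.711). The osteocalcin gene Bglap stood at 1.57 (SE 0.97, adjusted p = 0.216). These 3 genes were chosen for naming after their values were seen. The list as a whole was also chosen with earlier results of these data known, so its share is not independent of them.

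**Figure D5:**
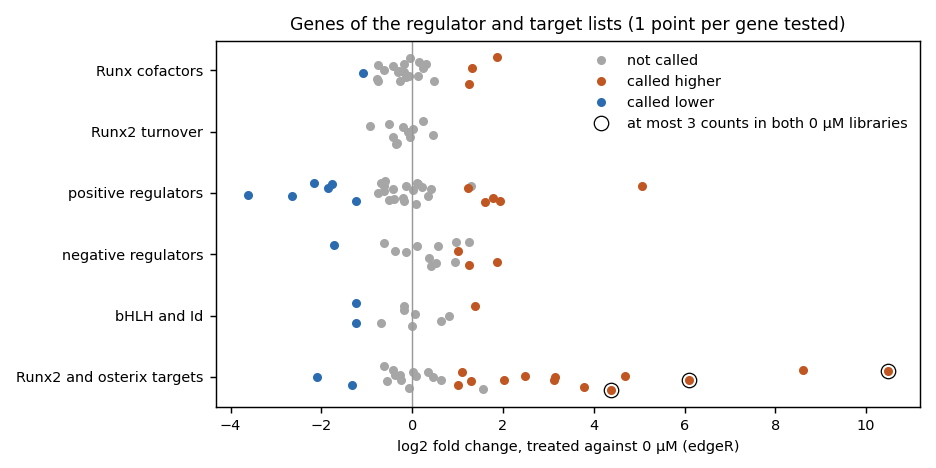
Log2 fold change, treated against 0 μM (horizontal axis), of each gene tested in 6 lists (vertical axis, with a small random offset), orange for genes called higher, blue for genes called lower and grey for the rest. Circled points had at most 3 counts in both 0 μM libraries. The 4 AP-1 genes called lower, down to -3.62 for Fosl1, lie at the left of the positive regulators, and the list of targets has 13 genes called higher.

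Last, for each of the 7 genes the 3 genes with the most similar pattern were found among 10353 genes with a mean of at least 5 CPM. Likeness was the root mean square difference of centred log2 CPM over the 10 libraries. The nearest to Runx2 were N4bp2 (0.103), the phosphatase gene Ptpre (0.125) and Mfsd8 (0.126), and N4bp2 stood at 3.22 and 3.93 FPKM at 0 μM and 7.63 to 10.6 FPKM in treated cells. The nearest to Sp7 were the integrin gene Itga8 (0.384), Extl1 (0.401) and Acsm4 (0.406). These distances are larger than those of the other genes to their neighbours. The median distance to all genes compared was also larger for Sp7, at 1.76, against 0.338 (Cbfb) to 0.622 (Runx2) for the others. The distances were not scaled to this spread. Itga8 stood at 1.13 and 1.28 FPKM at 0 μM, at 7.9 to 16.7 FPKM in treated cells, and at 2.97 and 2.4 FPKM in A-5 and B-4. The nearest to Runx1 was Pml (0.176), to Cbfb Dnaaf5 (0.0517), to Runx3 Bmp2k (0.0918), to Twist1 Snx19 (0.11) and to Twist2 the homeobox gene En1 (0.122). Runx3 was itself the third nearest gene to Twist1 (0.115). These neighbours depend on the untreated libraries. Over the 8 dosed libraries alone, Cbfb kept 1 of its 3 neighbours, Dnaaf5, and the other 6 genes kept 0.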

How the data were processed

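MC3T3-E1 mRNA was enriched on oligo(dT) beads and sequenced with an Illumina TruSeq kit. The authors deposited 1 table of 29583 genes (22036 Ensembl genes and 7547 newly assembled loci) with raw read counts per gene and, beside them, FPKM values scaled by the authors to transcript length and library size. The submitters' processing notes name HISAT2 2.0.4 and GATK 3.2-2. The counting program, genome build and annotation are not given in the sources used here. The table's fold changes and p-values for pairs of single libraries and its pathway annotations were not used. Library codes in the titles placed every value column, and 0 were left over. Library totals lay between 27108562 and 58218009 counts, so that 3 counts, the most that a count of 0 allows, stood for 0.0515 to 0.111 CPM. This covers counting error only.

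Counts were tested with edgeR 4.0.16 (TMM, filterByExpr, quasi-likelihood test, Benjamini-Hochberg adjustment over all genes tested) in R 4.3.3. Comparisons were 6 treated against 2 libraries at 0 μM with day as covariate, day 10 against day 5 within treated cells (3 against 3), the difference of the treatment change between days, the slope with dose, and 150 μM against the other doses. Common dispersion gave a biological coefficient of variation of 0.14 to 0.166. Ratios of FPKM were compared by a two-sided exact permutation test. Alternatives were DESeq2 1.42.0, limma 3.58.1 on log2(FPKM + 1) and log2(FPKM + 0.1), other scalings and filters, adjusted p alone, library total as covariate, no day covariate, each library left out, dose as a block between days, and the untreated libraries as the reference or pooled with 0 μM. Each untreated library alone as the reference was added after the data were seen. The tests were tested on simulated data. Tables used pandas 2.3.3 and numpy 2.4.6. Gene positions come from GENCODE M21 and promoters from RefSeq, where 6 of the 7 genes matched, with 8 promoters.

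The 7 genes and all lists were chosen with earlier results of these data known. The genes named are the 7, genes overlapping them, the 3 nearest in pattern to each, and up to 4 called genes per direction and list with the largest fold change at a mean of at least 1 CPM. Genes named outside this rule are marked in the text or serve as markers.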

Additional observations from a re-analysis of the deposited data

Results flagged for a closer look

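The untreated libraries, which the comparisons left out, held some of these genes above both 0 μM libraries. Runx2 stood at 19.6 FPKM in A-5 and at 32.6 FPKM in B-4, against 14.8 and 16.3 FPKM at 0 μM. Sp7 stood at 2.92 FPKM in A-5 and 2.99 FPKM in B-4, against 1.53 and 1.86 FPKM. Cbfb stood at 48.9 FPKM in A-5, against 44.0 and 45.0 FPKM. The labels give no time for either library. Among the tests, these values entered only the alternative fits, where the untreated libraries served as the reference or were pooled with 0 μM. No gene of the 7 passed the test of a difference between days in its change with treatment.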

How the results depend on the processing

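The number of the 7 genes called in treated against 0 μM, 3, was 6 by adjusted p alone and 1 with the untreated libraries as the reference, pooled with 0 μM, or with A-5 alone or B-4 alone as the reference, where the lone library is assumed to vary like the others. Leaving out 1 library gave 3 to 4 (4 without 0 μM of day 5). Runx1 was 0.02 with both untreated libraries and 0.73 (adjusted p = 0.0233) with B-4 alone, and with B-4 alone Cbfb was 0.11 and Twist2 0.08 (log2 fold changes), all opposite in sign to those against 0 μM. The untreated libraries have no time and the cause was not tested. Sp7 was called in all 21 alternatives of its treated value, from 2.97 to 4.4. Runx3 passed on p in 8 of 21 alternatives, from 0.16 to 0.78.

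Between days the count of 0 was 1 by adjusted p alone and 0 to 1 with a library left out. Replicate numbers coincide with dose, so the paired fit took dose as a replicate block. It called 0 of the 7 genes and 211 of all genes, against 168 without it, and Sp7 stood at 0.86 (adjusted p = 0.0271). Library totals gave 133 genes called higher and 72 lower, against 145 and 23 with TMM. Over all genes, treated against 0 μM called 3259 genes, against 1138 by limma on log2(FPKM + 1), 1836 with at least 10 counts in every library, 1538 with the untreated libraries as the reference, 1739 with them pooled with 0 μM, 2121 with A-5 alone and 1915 with B-4 alone. Between days, limma called 40 (FPKM + 1) and 109 (FPKM + 0.1) genes, DESeq2 277, the filter of 1 count in total 346, and fits without 1 library 18 to 217. The interaction, dose and 150 μM comparisons called 0 of the 7 genes in each alternative run. With 1 library per dose and day, dose and library cannot be told apart.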
